A study of Mus musculus with 18 samples.

Results

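The genes described here are the axon guidance ligands and receptors of the semaphorin, plexin, neuropilin, Slit, Robo, netrin and ephrin systems. The families were chosen with earlier results of these data known, and their members were taken by symbol, with no filter on measured values. Members are every protein-coding gene of the count table whose name begins with Sema, Plxn, Unc5, Efna, Efnb, Epha or Ephb, or is *Nrp1*, *Nrp2*, *Slit1* to *Slit3*, *Robo1* to *Robo4*, a numbered *Ntn*, *Dcc* or *Neo1*. This gave 70 members among the 38924 genes of the table: 20 semaphorins, 11 plexins and neuropilins, 7 Slits and Robos, 10 netrins and their receptors, 8 ephrins and 14 Eph receptors. Bulk RNA-seq covered adult mouse fibroblasts of heart, kidney and tail, either grafted beneath the capsule of a host kidney (HFs, KFs and TFs) or kept in culture (HFc, KFc and TFc), with 3 libraries in each of the 6 groups. By their labels, donors of all 6 groups were male Rosa mT/mG mice of 10 weeks on a C57BL/6 background, in which membrane-targeted TdTomato is expressed in all tissues. The sex-linked genes of KFs replicate 3 went against the male label, as given below. Fibroblasts of all groups had first grown for 10 days in culture. For HFs, KFs and TFs, 400000 to 500000 cells on gelatin foam were placed in syngeneic C57BL/6J recipients of 10 to 11 weeks, and CD45−;TdTomato+ cells were sorted from the kidneys after 3 days. For HFc, KFc and TFc, the remaining cells were replated and kept for 3 more days. Transplanted cells therefore differed from their controls by the host, the graft and the sort together, which cannot be told apart, and no sorted but untransplanted group was analysed here.

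Axon guidance molecules are cues that a growing nerve fibre reads with receptors at its tip. Semaphorins act through plexins, with neuropilins as co-receptors for most secreted class 3 members. Slits repel through Robos, netrins attract through Dcc and neogenin and repel through Unc5 receptors, and ephrins and Eph receptors signal at contacts between cells, in both directions. Outside the nervous system the same families take part in vessel patterning, heart and kidney development, cell sorting and cell adhesion, and fibroblasts express many of them.

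Levels are given as CPM, the counts of a library brought to the same TMM-normalized total as the others, and between genes only as CPM per kilobase of merged exons. Library totals ran from 17927838 to 32245168 counts, and 3 counts, taken as the detection floor, corresponded to between 0.089 and 0.18 CPM. A floor of this kind covers counting error only. KFs replicate 3 stood apart. It had 1492 CPM of *Xist* and a sum of 0.722 CPM over Y-linked genes, against at most 0.404 CPM and at least 175 CPM in the other 17 libraries, although the labels give male donors. Its count column was named Kidney-Fibros, whereas the names of the other columns began with an organ letter and a replicate number. This library also held the lowest sum of 8 fibroblast markers of the KFs libraries (17843 CPM, against 92924 and 69120) and the highest sum of 4 epithelial markers (118 CPM, against 7.84 and 3.78). KFs results of members whose call it decided, or that it moved by over 1.5 times, are therefore given with and without it. All 8 fibroblast markers were detected in every group. The sum of 4 cardiac transcription factors was high only in HF libraries, and lower in HFs (549 to 637 CPM) than in HFc (1466 to 1516 CPM). It was at most 6.08 CPM in any KF or TF library. Of 4 tail markers, *Hoxa13* and *Hoxb13* were at or under the floor in every HF and KF group. The tail marker *Hoxc13* was lower but present in other organs, at 10.7 to 13.03 CPM in KFc and 2.06 to 2.99 CPM in HFc against 36.8 to 42.6 CPM in TFc, and *Hoxd13* was at or under the floor in TFc and TFs too. Of 4 neuron markers, *Snap25* and *Rbfox3* were at or under the floor in all 6 groups. Proximal tubule markers, of which 6 or 7 of 9 were at or under the floor in each cultured group, were all detected in each transplanted group, with sums of 129 to 1385 CPM in HFs, 61.8 to 132 CPM in KFs and 136 to 343 CPM in TFs. In culture the sums were 19.4 to 19.8 CPM in HFc, 95.3 to 102 in KFc and 13.5 to 16.2 in TFc. The KFc sum, which overlapped that of KFs, was mostly *Lrp2* (99.2, 98.4 and 92.05 CPM). The part of these markers in the results below was not tested. In bulk RNA, fewer cells of a type and less RNA per cell cannot be told apart. The study calls the libraries of a condition biological replicates, and the labels do not say whether these were separate animals or separate cultures, so p-values measure the spread between these libraries.

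Of the 70 members, 62 had enough counts to be tested. *Unc5cl*, an Unc5-like protein without a netrin-binding part, had no count in any library and *Epha8* at most 2 counts, and both are listed as not detected. The other 6 members left out, *Sema5b*, *Dcc*, *Ntn5*, *Unc5d*, *Epha6* and *Epha10*, had at most 17, 10, 8, 20, 8 and 4 counts in any library. *Dcc*, the receptor that gives netrins their attractive action on axons, was thus nearly without reads, whereas its relative *Neo1*, which binds netrins and repulsive guidance molecules, had 189.5, 195 and 191 CPM in HFc, 126, 133 and 134 in KFc and 89.6, 86.4 and 90.2 in TFc. Per length, averaged over the 18 libraries, the highest members were *Plxnb2* (64.6 CPM per kb), *Slit3* (50.1), *Unc5b* (47.1) and *Plxna1* (46.3). The highest ephrin was *Efnb1* (20.3 CPM per kb), the highest netrin *Ntn4* (19.2), and the highest Eph receptors *Ephb4* (15.8) and *Epha2* (12.7). Among semaphorins *Sema3d* (9.95 CPM per kb) and *Sema3c* (8.08) ranked first, and *Slit2* (8.28) followed *Slit3* among Slits and Robos.

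The comparison of transplanted with cultured cells asked what happened to the guidance genes once each kind of fibroblast was placed in the kidney. A member was called at an adjusted p under 0.05 in edgeR's quasi-likelihood test with a log2 fold change above 1 or below -1. In heart fibroblasts 23 members rose and 8 fell among the 62 tested (50%), where 27.7% of all genes tested were called, 18.3% upward and 9.33% downward. In kidney fibroblasts 13 rose and 9 fell (35.5%, against 22.6% of all genes, 14.7% upward and 7.99% downward). In tail fibroblasts 8 rose and 11 fell (30.6%, against 16.5%, or 11% upward and 5.53% downward). The median log2 fold change of the tested members was 0.70 in heart, 0.37 in kidney and 0.04 in tail, beside 0.05, 0.09 and 0.00 over all genes. Filtering on counts keeps a low gene that is high in 1 group, so these shares describe the tested members only. Without KFs replicate 3, 27 members were called in kidney fibroblasts, where 23.2% of all genes were. Of the 62 members, 43 were called in at least 1 organ, 6 in all of them, 17 in exactly 2 and 20 in exactly 1, and 12 of these 20 were called in heart fibroblasts only. The fold change had the same sign in all 3 organs for 35 of the 62, as the plot of transplant fold changes by family shows.

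**Figure D1:**
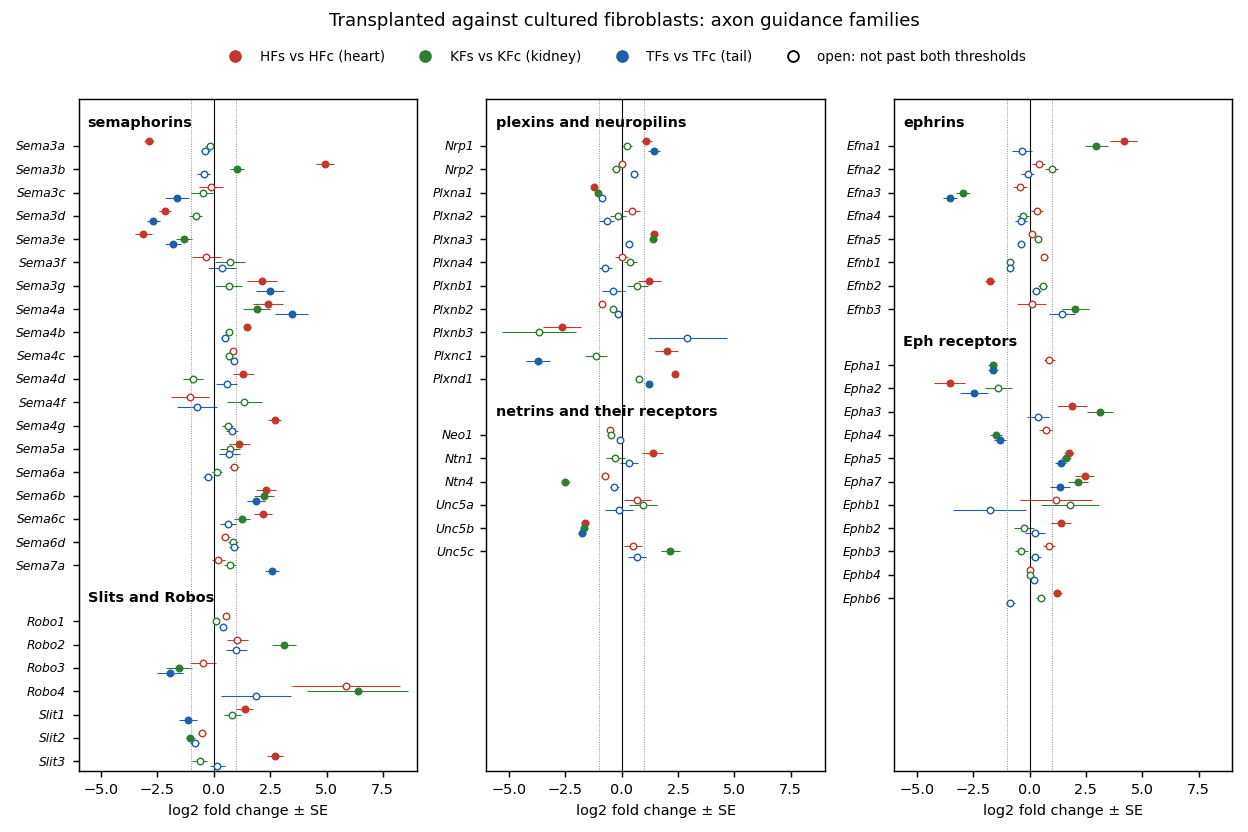
Log2 fold change (± SE) of the 62 tested members in transplanted against cultured fibroblasts of heart (red), kidney (green) and tail (blue), by family; filled points passed both thresholds and dotted lines mark log2 fold changes of -1 and 1. In heart fibroblasts 23 members rose and 8 fell, in kidney 13 and 9, and in tail 8 and 11.

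In all 3 organs, 4 members rose. *Epha5*, an Eph receptor for ephrin-A ligands best known from brain, had 7.21, 5.35 and 3.78 CPM in HFc and 18.3, 15.2 and 21.5 in HFs, 4.4, 4.61 and 5.78 in KFc and 16.01, 10.7 and 18.5 in KFs, and 6.202, 6.04 and 5.74 in TFc and 13.1, 17.4 and 16.2 in TFs. Every transplanted library lay above every cultured one, and the log2 fold changes were 1.74 ± 0.23, 1.61 ± 0.23 and 1.37 ± 0.23. *Epha7*, another receptor of this class, rose by 2.45 ± 0.43, adjusted p = 0.000172 in heart, from 10.2, 10.1 and 11.9 to 67.5, 60.7 and 47.3 CPM, and in tail from 2.34, 2.83 and 2.54 to 5.78, 7.36 and 6.45 CPM (1.35 ± 0.46, adjusted p = 0.0296). In kidney its values were 7.68, 7.33 and 8.51 CPM in KFc and 23, 11.8 and 69.9 in KFs, so that the highest value was in replicate 3 (2.15 ± 0.42, adjusted p = 0.000651, and 1.1 ± 0.21, adjusted p = 0.000448 without that library). *Sema6b*, a transmembrane semaphorin that binds A-type plexins, had 0.765, 0.542 and 0.442 CPM in HFc against 2.53, 2.73 and 3.57 in HFs, 0.298, 1.26 and 1.13 in KFc against 3.84, 6.38 and 2.45 in KFs, and 2.26, 3.02 and 2.32 in TFc against 11.4, 8.86 and 7.76 in TFs. Its log2 fold changes were 2.32 ± 0.45, 2.23 ± 0.43 and 1.88 ± 0.41, with no overlap between groups in any organ. *Sema4a*, a transmembrane semaphorin also known from immune cells, was low throughout. It had 0.255, 0.44 and 0.541 CPM in HFc against 1.08, 3.44 and 1.97 in HFs (2.4 ± 0.66, adjusted p = 0.00571), and 0.208, 0.0392 and 0.219 in TFc against 2.41, 1.36 and 1.57 in TFs (3.46 ± 0.73, adjusted p = 0.00159). The kidney call of *Sema4a* rested on replicate 3, since KFs had 2.06, 2.63 and 11.4 CPM and KFc 1.57, 1.47 and 1.23 (1.91 ± 0.6, adjusted p = 0.0155, and 0.68 ± 0.48, adjusted p = 0.251 without that library).

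A further 2 members fell in all 3 organs. *Unc5b*, a netrin receptor that mediates repulsion and is known from vessel sprouting, was among the most abundant members in culture, with 672, 674 and 669 CPM in HFc, 419, 417 and 396 in KFc and 279, 255 and 250.2 in TFc. After transplantation it had 243, 227 and 191 CPM in HFs, 122, 169.5 and 92.2 in KFs and 96.8, 67.4 and 69.3 in TFs. The log2 fold changes of -1.61 ± 0.18, -1.68 ± 0.18 and -1.75 ± 0.18 lay within 1 SE of each other, and no groups overlapped. *Sema3e*, a secreted semaphorin that binds plexin D1 directly, had 27.6, 24.9 and 24.6 CPM in HFc and 3.91, 2.78 and 2.202 in HFs, and 17, 16.5 and 16.7 in TFc and 4.71, 4.36 and 5.34 in TFs. It had 24.5, 27.2 and 31.8 CPM in KFc and 4.204, 9.94 and 19.1 in KFs, where the spread after transplantation was wide. Its log2 fold changes were -3.13 ± 0.38 in heart, -1.33 ± 0.34 in kidney (-2.01 ± 0.26, adjusted p = 1.06e-05 without replicate 3) and -1.8 ± 0.36 in tail. Its receptor *Plxnd1* moved the other way in heart and tail, as described further on.

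Because these 6 genes moved in the same direction in every organ, the 250 bases before their start sites are shown, from RefSeq on GRCm38.p6, where the start site of each lay at the same base as in GENCODE mouse release 21 (60 of the 70 members had an entry). The windows are chr5:84417383-84417632 (minus strand), chr4:28812881-28813130 (plus), chr3:88461183-88461432 (minus), chr17:56140344-56140593 (minus), chr5:14025026-14025275 (plus) and chr10:60831582-60831831 (minus), 5′ to 3′ towards the start. Capitals mark the GC box GGGCGG or its reverse complement CCGCCC, the only one of 5 motifs searched on both strands that these windows held (the others were ACGTG, the core of hypoxia response elements, TGANTCA, the AP-1 site, GGAATG, the TEAD site, and TATAAA, the TATA box, so no matches of different motifs overlapped).
Epha5: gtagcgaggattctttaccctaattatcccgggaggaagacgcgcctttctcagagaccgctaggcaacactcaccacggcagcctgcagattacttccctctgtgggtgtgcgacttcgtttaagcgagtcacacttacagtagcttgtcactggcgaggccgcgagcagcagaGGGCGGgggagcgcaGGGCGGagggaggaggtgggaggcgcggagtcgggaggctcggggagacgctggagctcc
Epha7: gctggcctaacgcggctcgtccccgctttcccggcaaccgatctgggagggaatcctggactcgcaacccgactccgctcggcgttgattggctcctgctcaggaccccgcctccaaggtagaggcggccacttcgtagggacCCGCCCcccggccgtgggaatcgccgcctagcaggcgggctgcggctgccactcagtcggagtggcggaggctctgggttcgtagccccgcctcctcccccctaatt
Sema4a: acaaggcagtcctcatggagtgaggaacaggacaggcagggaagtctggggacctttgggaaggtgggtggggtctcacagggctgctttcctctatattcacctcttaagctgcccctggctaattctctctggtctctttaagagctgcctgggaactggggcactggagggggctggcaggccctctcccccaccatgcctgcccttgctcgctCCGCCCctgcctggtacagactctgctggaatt
Sema6b: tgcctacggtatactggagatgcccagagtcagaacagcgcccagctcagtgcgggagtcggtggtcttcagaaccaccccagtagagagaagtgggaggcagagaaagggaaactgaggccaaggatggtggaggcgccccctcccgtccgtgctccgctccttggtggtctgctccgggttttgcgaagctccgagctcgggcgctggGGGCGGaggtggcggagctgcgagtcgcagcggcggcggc
Sema3e: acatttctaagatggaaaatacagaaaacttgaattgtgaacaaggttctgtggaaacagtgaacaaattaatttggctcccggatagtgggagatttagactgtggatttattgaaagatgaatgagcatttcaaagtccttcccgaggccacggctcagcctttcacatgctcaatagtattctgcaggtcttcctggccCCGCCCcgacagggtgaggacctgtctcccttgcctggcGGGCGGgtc
Unc5b: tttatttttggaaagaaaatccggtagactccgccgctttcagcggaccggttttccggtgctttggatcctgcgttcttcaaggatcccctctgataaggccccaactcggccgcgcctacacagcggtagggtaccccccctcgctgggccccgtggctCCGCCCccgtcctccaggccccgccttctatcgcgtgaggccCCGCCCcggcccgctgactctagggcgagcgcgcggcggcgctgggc
The GC box occurred in all 6 windows and in 32.9% of 27025 promoters of the same length, a match of letters that says nothing of binding. The shares holding the others were 16.6% for ACGTG, 6.87% for TGANTCA, 12.6% for GGAATG and 13% for TATAAA. The windows differed in CpG content, with 20 CpG dinucleotides before *Epha5*, 25 before *Epha7*, 20 before *Sema6b* and 27 before *Unc5b*, but 7 before *Sema3e* and 2 before *Sema4a*, beside a median of 6 over all promoters.

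The class 3 semaphorins are secreted and act at a distance. *Sema3a*, a repellent read by neuropilin 1 and A-type plexins, was a tail gene in culture, with 143, 144 and 139 CPM in TFc, 35.9, 37.3 and 33.6 in KFc and 16.2, 11.6 and 12.7 in HFc. After transplantation it had 85.1, 131 and 112 CPM in TFs, 25.5, 35.8 and 32.8 in KFs and 1.02, 2.25 and 2.13 in HFs. It fell in heart fibroblasts only (-2.87 ± 0.23, adjusted p = 1.08e-07), with values of -0.18 ± 0.19 in kidney and -0.37 ± 0.19 in tail. *Sema3b*, another ligand of neuropilins, did the opposite in heart fibroblasts. It was close to the floor in HFc, at 0.219, 0.542 and 0.688 CPM, and had 14.97, 18.2 and 10.2 CPM in HFs (4.93 ± 0.41, adjusted p = 1.5e-07), against 5.11, 5.06 and 4.42 in KFc and 16.4, 6.54 and 7.18 in KFs (1.04 ± 0.32, adjusted p = 0.0129) and 36.2, 41.05 and 36.3 in TFc and 23.2, 26.9 and 32.4 in TFs (-0.46 ± 0.3, adjusted p = 0.242). The highest HFs library still lay below every TFs library. *Sema3d*, known for its part in heart and vein development, was a heart gene in both states. It had 317, 335 and 313 CPM in HFc and 60.6, 84.8 and 70.4 in HFs (-2.16 ± 0.28, adjusted p = 9.21e-06), and 55.3, 56.2 and 55.2 in TFc and 6.37, 7.82 and 11.5 in TFs (-2.69 ± 0.29, adjusted p = 5.19e-06). In kidney, with 35.2, 34.6 and 36.5 CPM in KFc and 32.2, 11.1 and 17.5 in KFs, the fold change did not reach the limit (-0.81 ± 0.27, adjusted p = 0.0224).

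*Sema3c*, a ligand of outflow tract development in the heart, fell in tail fibroblasts from 147, 166 and 151 to 44.2, 52.3 and 51.4 CPM (-1.65 ± 0.53, adjusted p = 0.0219). In kidney its KFs values were 16.3, 12.5 and 96.7 CPM against 59.7, 51.7 and 64.4 in KFc, and without replicate 3 it passed the test there too (-2.07 ± 0.23, adjusted p = 1.71e-06). *Sema3f*, the main ligand of neuropilin 2, showed the same kind of spread, with 1.94, 2.02 and 26.1 CPM in KFs and 5.78, 6.77 and 5.62 in KFc, and a log2 fold change that was 0.72 ± 0.65 with replicate 3 and -1.65 ± 0.19, adjusted p = 2.74e-06 without it. *Sema3g*, a semaphorin best known from endothelium, rose in heart, from 0.146, 0.102 and 0.197 to 0.481, 0.881 and 0.607 CPM (2.15 ± 0.67, adjusted p = 0.0123), and in tail, from 0.297, 0.196 and 0.263 to 1.34, 0.9996 and 1.99 CPM (2.49 ± 0.62, adjusted p = 0.00536). All these levels were low, and a sum of 10 endothelial markers also stood higher in those groups, at 81.8 to 92.1 CPM in HFs against 50.9 to 53.4 in HFc and 64.8 to 69.3 CPM in TFs against 50.7 to 57.7 in TFc. The markers did not all rise together. *Vwf* had 11.1, 9.71 and 10.6 CPM in HFc and 21.3, 24.4 and 21.8 in HFs. In tail *Vwf* had 14.6, 12.8 and 13.7 CPM in TFc and 22.3, 21.9 and 21.8 in TFs. *Pecam1* overlapped in heart, with 27.1, 27.2 and 28.3 CPM in HFc and 26.8, 24.2 and 29.8 in HFs. *Tek* rose in heart but was lower in tail, with 13.3, 13.9 and 15.2 CPM in TFc and 11.5, 9.86 and 12.7 in TFs. The part of endothelial cells in the change of *Sema3g* was not tested.

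Of the 12 tested semaphorins of classes 4 to 7, which are bound to the membrane, 7 rose in heart, 3 in kidney and 3 in tail, and every member of these classes that was called was higher after transplantation. Over all 19 semaphorins tested, 9 rose and 3 fell in heart (63.2%, against 27.7% of all genes), 4 rose and 1 fell in kidney (26.3%, against 22.6%), and 4 rose and 3 fell in tail (36.8%, against 16.5%). *Sema4g*, a ligand of plexin B2, rose in heart fibroblasts from 0.5101, 0.982 and 1.18 to 4.75, 7.05 and 5.54 CPM (2.71 ± 0.28, adjusted p = 1.35e-06), while KFc had 3.43, 4.99 and 4.65 CPM and TFc 3.41, 4.16 and 4.604. *Sema4d*, the plexin B1 ligand that immune cells also make, had 2.62, 3.55 and 3.44 CPM in HFc and 4.57, 8.68 and 10.4 in HFs (1.31 ± 0.46, adjusted p = 0.0246). Its kidney values were 14.6, 14.4 and 17.05 CPM in KFc and 3.23, 4.49 and 16.5 in KFs, a fall that passed the test only without replicate 3 (-0.93 ± 0.44, adjusted p = 0.0946, and -2.03 ± 0.29, adjusted p = 2.8e-05). The sum of 6 leukocyte markers lay between 359 and 374 CPM in KFc and at 117, 90.7 and 10.5 CPM in KFs, and its part in the kidney values was not tested. *Sema4b*, *Sema5a* and *Sema6c* also rose in heart fibroblasts (1.46 ± 0.18, adjusted p = 7.77e-06 for *Sema4b*, 1.13 ± 0.46, adjusted p = 0.0468 for *Sema5a* and 2.17 ± 0.39, adjusted p = 0.000232 for *Sema6c*), and *Sema6c* in kidney too (1.24 ± 0.36, adjusted p = 0.0107). *Sema7a*, an anchored semaphorin that binds plexin C1 and integrins, rose in tail fibroblasts, from 4.303, 4.905 and 3.99 to 32.5, 24.7 and 22.1 CPM (2.58 ± 0.3, adjusted p = 1.09e-05). The heart values of *Sema7a*, 11.6, 13.4 and 12.1 CPM in HFc and 22.4, 12.2 and 8.01 in HFs, overlapped (0.19 ± 0.29, adjusted p = 0.595).

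**Figure D2:**
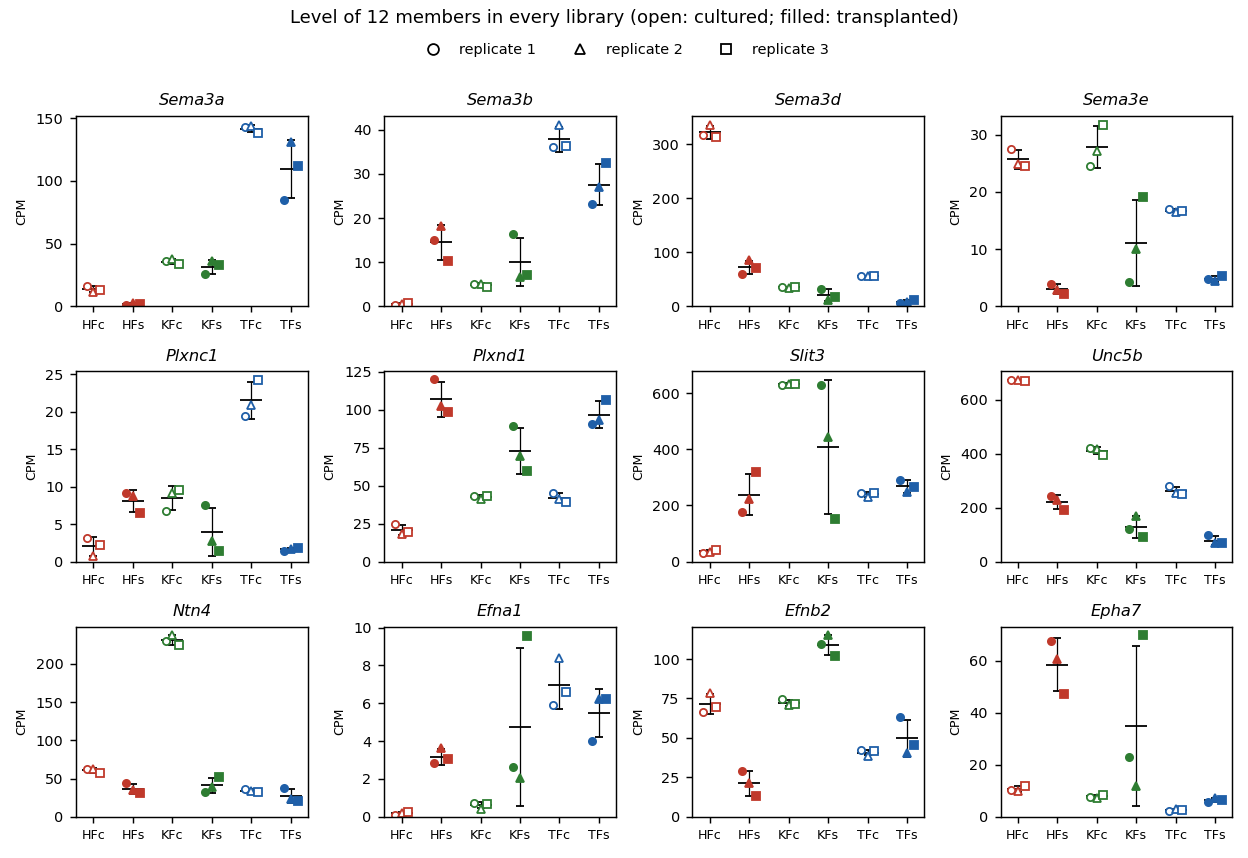
Level (CPM on TMM-scaled libraries, linear axis from 0) of 12 members in each of the 18 libraries; open symbols are cultured and filled symbols transplanted fibroblasts, colours are organs, symbol shapes are replicates, and bars give the mean ± SD of 3 libraries. *Unc5b* is lower after transplantation in every organ, the rise of *Slit3* passed both thresholds in heart fibroblasts only, and the KFs libraries spread widely for *Slit3*, *Epha7* and *Efna1*.

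Of the 11 receptors of semaphorins tested, 5 rose and 2 fell in heart (63.6%, against 27.7% of all genes), 1 rose and 1 fell in kidney (18.2%, below the 22.6% of all genes), and 2 rose and 1 fell in tail (27.3%, against 16.5%). *Plxna1* and *Plxnb2*, plexins found in most tissues, were high everywhere. *Plxna1* had 649, 634 and 636 CPM in HFc and 292, 286 and 243 in HFs (-1.22 ± 0.09, adjusted p = 3.73e-08), and 601, 581 and 574 in KFc and 266, 264 and 311 in KFs (-1.06 ± 0.09, adjusted p = 2.08e-07). In tail it had 479.6, 476 and 474 CPM in TFc and 238, 264 and 274 in TFs, a difference under the fold limit (-0.88 ± 0.09, adjusted p = 2.22e-06). *Plxnb2* changed by less than the fold limit in each organ (-0.86 ± 0.08, adjusted p = 2.85e-07 in heart), with 808, 798 and 776 CPM in HFc and 467, 464 and 386 in HFs. *Plxnd1*, the receptor of *Sema3e* and a vascular plexin, rose in heart from 24.5, 17.97 and 19.5 to 120.0, 103 and 98.2 CPM (2.37 ± 0.15, adjusted p = 7.94e-09) and in tail from 45.1, 41.3 and 39.2 to 90.3, 93.4 and 106 CPM (1.21 ± 0.14, adjusted p = 9.49e-06). In kidney it had 43.3, 41.3 and 43.4 CPM in KFc and 89.3, 69.6 and 59.5 in KFs, with no overlap but a fold change under the limit (0.77 ± 0.14, adjusted p = 0.000316). In heart and tail, the ligand *Sema3e* thus fell and its receptor rose in the same libraries.

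*Plxnc1*, the receptor of *Sema7a*, went in opposite directions. It had 3.21, 0.711 and 2.16 CPM in HFc and 9.198, 8.68 and 6.42 in HFs (2.0 ± 0.5, adjusted p = 0.00315), but 19.4, 20.9 and 24.2 in TFc and 1.39, 1.64 and 1.82 in TFs (-3.72 ± 0.53, adjusted p = 6.4e-05). In tail fibroblasts *Sema7a* rose while *Plxnc1* fell. *Plxna3*, a partner of neuropilins for class 3 ligands, rose in heart (1.44 ± 0.17, adjusted p = 3.73e-06) and kidney (1.41 ± 0.17, adjusted p = 6.26e-06). *Plxnb1*, the *Sema4d* receptor, rose in heart from 7.29, 5.58 and 11.1 to 20.5, 19.3 and 16.2 CPM (1.23 ± 0.5, adjusted p = 0.0485). *Plxnb3*, a receptor of *Sema5a*, was found almost only in heart fibroblasts, with 2.11, 1.49 and 0.835 CPM in HFc and 0.2405, 0.353 and 0.114 in HFs (-2.64 ± 0.85, adjusted p = 0.0202). It was at or under the floor in TFc and KFs, where no library of either group held a read of it. The co-receptor *Nrp1*, shared by class 3 semaphorins and VEGF, had 75.1, 76.6 and 75.8 CPM in HFc and 149, 136 and 200.2 in HFs (1.09 ± 0.26, adjusted p = 0.00194), and 102, 106 and 104 in TFc and 255, 278 and 306 in TFs (1.43 ± 0.26, adjusted p = 0.000466). Its KFs values of 216, 138 and 399 CPM spread around those of KFc (211, 225 and 210.1). *Nrp2*, the other co-receptor, passed no fold limit and was a tail gene in both states, as given below.

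Of the 7 Slits and Robos tested, 2 rose in heart (28.6%, near the 27.7% of all genes). In kidney 2 rose and 2 fell (57.1%, against 22.6%), and in tail 2 fell (28.6%, against 16.5%). *Slit3*, a secreted Robo ligand known for its part in diaphragm and kidney development, changed in heart fibroblasts. It had 30.9, 35.5 and 41.3 CPM in HFc and 177, 222 and 318 in HFs (2.74 ± 0.35, adjusted p = 1.06e-05). HFs then overlapped with TFs, which had 292, 247 and 265 CPM, against 243, 230.5 and 246 in TFc (0.16 ± 0.33, adjusted p = 0.731). In kidney fibroblasts it had 629.8, 634 and 634 CPM in KFc and 628, 443 and 153 in KFs, the lowest value being in replicate 3 (-0.63 ± 0.33, adjusted p = 0.126, and -0.28 ± 0.19, adjusted p = 0.227 without it). *Slit2*, the Slit best known for repelling axons at the midline, moved down in each organ, with 251, 272 and 248 CPM in HFc and 180.1, 175 and 180.4 in HFs, 346, 377 and 378 in KFc and 243, 181 and 109.5 in KFs, and 190.5, 175 and 183 in TFc and 112, 106 and 86.6 in TFs. Of these differences only that in kidney passed the fold limit (-1.05 ± 0.19, adjusted p = 0.000313), and without replicate 3 it did not (-0.83 ± 0.11, adjusted p = 1.54e-05). *Slit1*, otherwise a largely neural Slit, was low and rose in heart, from 1.06, 0.677 and 0.934 to 2.28, 2.997 and 1.63 CPM (1.37 ± 0.38, adjusted p = 0.00604), but fell in tail, from 1.01, 1.02 and 0.614 to 0.642, 0.182 and 0.382 CPM (-1.15 ± 0.41, adjusted p = 0.0367).

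Of the Slit receptors, *Robo2* and *Robo4* were called higher and *Robo3* lower in kidney fibroblasts, and *Robo3* lower in tail. *Robo2*, which is needed to place the ureteric bud in kidney development, had 2.05, 1.81 and 1.396 CPM in KFc and 8.37, 6.44 and 30.7 in KFs (3.11 ± 0.52, adjusted p = 0.000167, and 2.03 ± 0.35, adjusted p = 0.000165 without replicate 3). *Robo1*, its broad relative, passed the fold limit in no organ and had 78.9, 76.9 and 73.3 CPM in HFc and 112, 119 and 102 in HFs (0.54 ± 0.1, adjusted p = 0.000431). *Robo3*, the divergent Robo of commissural axons, was near the floor and fell in kidney from 1.42, 0.628 and 0.731 to 0.404, 0.0962 and 0.441 CPM (-1.56 ± 0.58, adjusted p = 0.0351) and in tail from 1.16, 1.41 and 1.36 to 0.321, 0.227 and 0.467 CPM (-1.93 ± 0.58, adjusted p = 0.0162). Both calls were lost when 1 of several libraries was left out. *Robo4*, the endothelial Robo, had no read in any HFc or KFc library, and 0.9298, 0.256 and 0.0401 CPM in KFs, a mean at least 3.88-fold higher than the KFc floor (adjusted p = 0.0338). This call on a few reads was lost when any single KFc library was left out. The endothelial marker sum ran from 47.5 to 66.3 CPM in KFs and from 44.2 to 48.1 CPM in KFc, and its part in the *Robo4* reads was not tested.

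Of the 6 netrins and netrin receptors tested, 1 rose and 1 fell in heart (33.3%, against 27.7% of all genes). In kidney 1 rose and 2 fell (50%, against 22.6%), and in tail 1 fell (16.7%, against 16.5%), *Unc5b* being among those that fell in each organ. *Ntn4*, a netrin of basement membranes that binds laminin, had 231, 238 and 225 CPM in KFc and 32.5, 38.7 and 51.8 in KFs (-2.5 ± 0.2, adjusted p = 1.56e-07, and -2.74 ± 0.2, adjusted p = 1.94e-08 without replicate 3). The KFs level was then close to those of HFs (43.9, 34.6 and 30.6 CPM) and TFs (37.1, 22.6 and 21.2). The sum of 4 smooth muscle and pericyte markers went from 950.4 to 973 CPM in KFc to 77.1, 98.4 and 16.3 CPM in KFs. Nearly all of it was *Myh11*, with 956, 968 and 945 CPM in KFc and 67.4, 88.9 and 9.66 in KFs. Of the others, *Rgs5* had 3.65, 4.68 and 5.38 CPM in KFc and 8.49, 8.56 and 5.13 in KFs. *Abcc9* had 0.0746, 0.628 and 0.133 CPM in KFc and 1.17, 0.801 and 1.32 in KFs, and *Kcnj8* at most 0.336 CPM in these libraries. The markers thus did not fall together, and the part of such cells in the change of *Ntn4* was not tested. *Ntn1*, the classical netrin, rose in heart from 4.41, 5.28 and 4.96 to 14.5, 14.9 and 8.58 CPM (1.37 ± 0.46, adjusted p = 0.0198). In kidney it had 26.2, 28.7 and 25.5 CPM in KFc and 12.7, 7.85 and 45.8 in KFs, and its log2 fold change went from -0.28 ± 0.43 to -1.44 ± 0.22, adjusted p = 6.47e-05 without replicate 3. *Unc5c*, a repulsive netrin receptor, rose in kidney from 7.16, 7.96 and 8.14 to 63.3, 30.03 and 11.02 CPM (2.16 ± 0.41, adjusted p = 0.000438, and 2.54 ± 0.25, adjusted p = 5.27e-07 without replicate 3), the lowest of the KFs values being in that library.

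Of the 8 ephrins tested, 1 rose and 1 fell in heart (25%, below the 27.7% of all genes). In kidney 2 rose and 1 fell (37.5%, against 22.6%), and in tail 1 fell (12.5%, below 16.5%). Ephrin-A ligands are anchored to the membrane by a lipid and bind mostly EphA receptors. *Efna1*, the main ligand of *Epha2*, was at or near the floor in HFc, with 0.0729, 0.203 and 0.246 CPM, and had 2.83, 3.61 and 3.04 CPM in HFs (4.18 ± 0.6, adjusted p = 2.7e-05). In kidney it had 0.709, 0.419 and 0.698 CPM in KFc and 2.63, 2.05 and 9.58 in KFs (2.95 ± 0.51, adjusted p = 0.000206, and 1.89 ± 0.33, adjusted p = 0.000175 without replicate 3). Tail fibroblasts held it in both states, at 5.94, 8.397 and 6.58 and 4.01, 6.22 and 6.23 CPM (-0.34 ± 0.45, adjusted p = 0.574). Its receptor *Epha2* fell where *Efna1* rose in heart, from 122, 114 and 116 to 11.1, 11.4 and 7.71 CPM (-3.55 ± 0.67, adjusted p = 0.000368), and fell in tail from 115, 112 and 110.4 to 19.4, 21.3 and 20.3 CPM (-2.47 ± 0.64, adjusted p = 0.00643). In kidney the *Epha2* values were 72.3, 66.04 and 67.5 CPM in KFc and 6.55, 5.38 and 67.3 in KFs, so that replicates 1 and 2 lay far below every cultured library and replicate 3 among them (-1.38 ± 0.61, adjusted p = 0.0752, and -3.57 ± 0.14, adjusted p = 6.11e-11 without that library). *Efna3* fell in kidney from 9.36, 10.1 and 10.5 to 1.58, 0.897 and 1.403 CPM (-2.95 ± 0.3, adjusted p = 1.64e-06) and in tail from 7.98, 8.71 and 8.46 to 0.589, 0.636 and 0.933 CPM (-3.52 ± 0.32, adjusted p = 9.12e-07), close to the values of heart fibroblasts (1.49, 1.59 and 1.77 CPM in HFc and 1.92, 1.102 and 0.683 in HFs). *Efna5* differed little, with 23.2, 26.5 and 24.9 CPM in KFc and 32.9, 31.5 and 30.8 in KFs, and 42.97, 39.2 and 43.7 in TFc and 28.9, 34.5 and 33.6 in TFs.

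Ephrin-B ligands cross the membrane and signal back into the cell that carries them. *Efnb2*, the arterial ligand of *Ephb4*, fell in heart fibroblasts from 66.2, 78.5 and 69.8 to 29.2, 21.1 and 13.3 CPM (-1.76 ± 0.21, adjusted p = 4.35e-06). In kidney it had 74.4, 70.9 and 71.5 CPM in KFc and 109.6, 115 and 102 in KFs, a rise under the fold limit in which no values overlapped (0.59 ± 0.2, adjusted p = 0.0225). *Efnb1* went the other way in each, at 30.3, 27.4 and 29.04 CPM in HFc and 54.5, 47.7 and 34.97 in HFs (0.66 ± 0.14, adjusted p = 0.000767), but 144, 139.6 and 135 in KFc and 91.9, 66.9 and 69.1 in KFs (-0.87 ± 0.13, adjusted p = 7.88e-05), all under the fold limit. *Ephb4*, the receptor of *Efnb2*, did not pass the test in any organ (0.0 ± 0.1, 0.0 ± 0.1 and 0.21 ± 0.1) and had 64.8, 64.4 and 70.6 CPM in HFc and 68.6, 68.5 and 63.4 in HFs. *Efnb3*, a mostly neural ephrin, was called in kidney on few reads (0.485, 0.209 and 0.0997 CPM in KFc and 1.29, 0.513 and 1.44 in KFs, 2.02 ± 0.6, adjusted p = 0.0111).

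Of the 11 Eph receptors tested, 5 rose and 1 fell in heart (54.5%, against 27.7% of all genes), 3 rose and 2 fell in kidney (45.5%, against 22.6%), and 2 rose and 3 fell in tail (45.5%, against 16.5%). *Epha3*, a receptor of connective tissue and heart cushion development, was a tail gene at 108, 111 and 109 CPM in TFc and 116, 150.3 and 159 in TFs. It rose in kidney fibroblasts from 2.31, 2.09 and 2.49 to 35.5, 20.3 and 4.09 CPM (3.11 ± 0.58, adjusted p = 0.000393) and in heart from 1.24, 0.846 and 1.42 to 7.76, 3.79 and 1.78 CPM (1.89 ± 0.67, adjusted p = 0.0242), in each case to well under the tail level. *Epha4*, which binds both classes of ephrin, fell in kidney from 44.7, 47.9 and 40.7 to 20.9, 7.404 and 19.4 CPM (-1.49 ± 0.27, adjusted p = 0.000352) and in tail from 68.8, 82.1 and 79.01 to 23.1, 32.2 and 38.3 CPM (-1.29 ± 0.27, adjusted p = 0.00142). *Epha1* followed the same course, with 16.9, 16.1 and 14.99 CPM in KFc and 3.31, 6.44 and 5.65 in KFs (-1.63 ± 0.21, adjusted p = 1.24e-05), and 9.53, 7.77 and 9.69 in TFc and 3.37, 2.95 and 2.42 in TFs (-1.63 ± 0.21, adjusted p = 2.93e-05). In heart fibroblasts *Epha1* had 0.984, 0.914 and 0.835 CPM in HFc and 1.804, 1.72 and 1.52 in HFs, a rise under the fold limit (0.87 ± 0.24, adjusted p = 0.00564). *Ephb2* rose in heart from 16.6, 16.5 and 14.2 to 42.5, 50.6 and 32.3 CPM (1.41 ± 0.45, adjusted p = 0.0149), and *Ephb6*, an Eph protein without kinase activity, from 4.08, 4.98 and 3.64 to 9.92, 11.6 and 8.54 CPM (1.24 ± 0.2, adjusted p = 0.000101).

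The size of the response was then compared between organs directly, with interaction contrasts at an adjusted p under 0.05. The heart response was more positive than the tail response for 17 members and more negative for 4 (33.9% of those tested, where 22.8% of all genes were called, 10.1% and 12.7% in these directions). Against the kidney response, heart was more positive for 14 and more negative for 7 (33.9%, against 26.2% of all genes, 10.7% and 15.5%). Kidney was more positive than tail for 9 and more negative for 4 (21%, against 11.1% of all genes, 4.99% and 6.07%). The 3 comparisons share groups. Without KFs replicate 3 the counts were 34 for heart against tail (32.3% of all genes), 33 for heart against kidney (35.2%) and 24 for kidney against tail (21.4%), the last with 13 more positive and 11 more negative in kidney. With other single libraries left out, the kidney against tail count fell to as few as 7. *Plxnc1* and *Slit1* were the members called in opposite directions, up in heart and down in tail, and their responses differed by 5.72 ± 0.73, adjusted p = 6.5e-05 and 2.52 ± 0.56, adjusted p = 0.00466. *Slit3* differed between heart and kidney by 3.37 ± 0.48, adjusted p = 0.000197, and between heart and tail by 2.58 ± 0.48, adjusted p = 0.00136. For *Unc5b*, the differences between responses were 0.14 ± 0.25 for heart against tail, 0.07 ± 0.25 for kidney against tail and 0.07 ± 0.25 for heart against kidney, none past the threshold.

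Differences between organs were asked in each state, at an adjusted p under 0.05 without a fold limit. In culture, 39 members differed between HFc and TFc (13 higher and 26 lower in HFc), or 62.9% of those tested where 41.9% of all genes were called, 20.9% higher and 21% lower. KFc and TFc differed in 37 (18 higher and 19 lower in KFc), or 59.7% against 36.4% of all genes, 17.8% higher and 18.5% lower. HFc and KFc differed in 36 (10 higher and 26 lower in HFc), or 58.1% against 29.2%, with 15.1% higher and 14% lower. After transplantation HFs and TFs differed in 25 (9 higher and 16 lower in HFs), or 40.3% against 23.1%, with 10.3% higher and 12.7% lower. KFs and TFs differed in 27 (15 higher and 12 lower in KFs), or 43.5% against 29.1%, with 15.3% higher and 13.8% lower. HFs and KFs differed in 22 (9 higher and 13 lower in HFs), or 35.5% against 33.2%, with 14.2% higher and 19% lower, so that the members' share was near the background. Without KFs replicate 3 the last 2 counts were 33 and 29, beside 35.1% and 38.8% of all genes. HFs and TFs then differed in 38, beside 31% of all genes. When only the 9 transplanted libraries were fitted and the proximal tubule marker level entered as a covariate, these 3 comparisons had 12, 4 and 3 calls, and the same 9 libraries without the covariate gave 17, 14 and 14. Fits of only the 2 groups compared had 32, 6 and 7. For these fits the share of all genes called is not given, so their counts cannot be read as particular to the members. By mean level, 25 of the 62 were highest in TFc, 24 in KFc and 13 in HFc. After transplantation 22 were highest in TFs, 22 in KFs and 18 in HFs. The organ with the highest mean was the same in both states for 45, of which 18 were highest in tail, 17 in kidney and 10 in heart. These are ranks of means, without a test or a share over all genes. Some means were close, as for *Sema4c* (16.7 CPM in TFc, 15.98 in HFc and 15.9 in KFc). KFs means include replicate 3, as for *Sema4d*, highest in KFs by mean with 3.23, 4.49 and 16.5 CPM against 4.57, 8.68 and 10.4 in HFs.

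Several ligands and receptors had their highest level in tail fibroblasts. *Epha3* was lower in HFc than in TFc by -6.57 ± 0.67 and in KFc by -5.57 ± 0.62, and after transplantation by -5.05 ± 0.6 in HFs and -2.83 ± 0.52 in KFs. *Nrp2* had 239.8, 245 and 241 CPM in TFc and 326, 399.7 and 344 in TFs, against 58.9, 57.9 and 53.1 in HFc, 52.4, 42.05 and 74.6 in HFs, 81.1, 81.8 and 75.2 in KFc and 78.6, 65.4 and 54.9 in KFs. No library of another organ reached the tail values, with differences of -2.66 ± 0.17 for HFs and -2.43 ± 0.17 for KFs after transplantation. *Ntn1* showed the same order, at 69.7, 69.7 and 66.3 CPM in TFc, 26.2, 28.7 and 25.5 in KFc and 4.41, 5.28 and 4.96 in HFc, and 67.9, 92.2 and 96.7 CPM in TFs (-3.81 ± 0.48 for HFc and -2.76 ± 0.45 for HFs). *Sema3a* was lower in HFs than in TFs by -5.88 ± 0.24, the largest organ difference among the members called after transplantation, and lower than in KFs by -4.08 ± 0.23. *Ephb6* was lower in KFc than in TFc by -2.29 ± 0.2, where TFc had 31.3, 32.2 and 33.4 CPM and KFc 7.35, 6.18 and 6.28. *Sema3b* and *Efna1* were tail genes in culture (-6.32 ± 0.42 and -5.32 ± 0.6 for HFc), and the differences after transplantation were -0.93 ± 0.31, adjusted p = 0.0378 and -0.8 ± 0.46, adjusted p = 0.238.

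Heart fibroblasts were marked by *Sema3d*, *Sema6d* and *Plxnb3*. *Sema6d*, a plexin A1 ligand known from heart tube morphogenesis, had 53.8, 64.2 and 57.8 CPM in HFc and 55.97, 69.1 and 126 in HFs. It had 10.1, 11.2 and 10.7 CPM in KFc, 15.6, 19.01 and 22.7 in KFs, 12.7, 13.3 and 13.5 in TFc and 27.2, 21.9 and 23.6 in TFs, all below every heart library. The difference between HFc and KFc was 2.46 ± 0.23, and that between HFs and KFs 2.13 ± 0.23. *Sema3d* was higher in HFc than in KFc by 3.18 ± 0.29 and higher in HFs than in TFs by 3.06 ± 0.3. *Plxnb3* was at least 13.1-fold higher in HFc than the floor in TFc and at least 14.0-fold higher than the floor in KFc, and at least 2.09-fold higher in HFs than the floor in KFs. *Epha7* and *Plxna4* separated heart and kidney from tail. *Plxna4*, a receptor of class 3 and class 6 semaphorins, had 26.6, 31.2 and 29.04 CPM in HFc, 28.6, 28.4 and 27.3 in KFc and 7.63, 6.67 and 7.103 in TFc, and 33.5, 36.8 and 16.7, 38.4, 51.1 and 20.8 and 3.8, 3.86 and 5.302 after transplantation (2.74 ± 0.31 for HFs and 3.08 ± 0.31 for KFs against TFs). *Epha7* was higher than in TFs by 3.16 ± 0.44 in HFs and 2.41 ± 0.43 in KFs, the latter being 1.41 ± 0.22, adjusted p = 0.000144 without KFs replicate 3.

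Kidney fibroblasts in culture had the highest *Slit3* and *Ntn4*. *Slit3* was lower in HFc than in KFc by -4.14 ± 0.38, and *Ntn4* higher in KFc than in TFc by 2.77 ± 0.2. *Epha1* and *Efna3* were also lower in HFc than in KFc, by -4.12 ± 0.24 and -2.63 ± 0.3. *Robo2* had the reverse order, being higher in HFc than in KFc by 2.43 ± 0.52 (11.04, 8.8 and 8.55 against 2.05, 1.81 and 1.396 CPM). *Sema4a*, *Sema4d* and *Sema7a* were higher in KFc than in TFc by 3.14 ± 0.72, 2.37 ± 0.47 and 2.0 ± 0.3. After transplantation *Slit1* was higher in both HFs and KFs than in TFs (2.52 ± 0.41 and 2.4 ± 0.41), *Efnb2* and *Efnb3* were lower in HFs than in KFs (-2.37 ± 0.21 and -1.94 ± 0.61), and so was *Sema3e* (-1.92 ± 0.37). Without KFs replicate 3 *Efnb3* was no longer called (-1.67 ± 0.67, adjusted p = 0.061), and *Sema3e* was (-1.28 ± 0.27, adjusted p = 0.00172). *Plxna2*, a class 3 and class 6 receptor, had 115, 140.0 and 127 CPM in HFs and 30.4, 19.4 and 76.8 in KFs (1.6 ± 0.35, adjusted p = 0.00277, and 2.37 ± 0.23, adjusted p = 1.95e-06 without KFs replicate 3). *Plxnb1* was higher in KFs than in TFs by 2.27 ± 0.51, with values of 12.9, 16.9 and 84.02 CPM in KFs and 6.37, 8.36 and 8.69 in TFs, the highest being in KFs replicate 3, without which the difference was 0.93 ± 0.22, adjusted p = 0.00418.

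**Figure D3:**
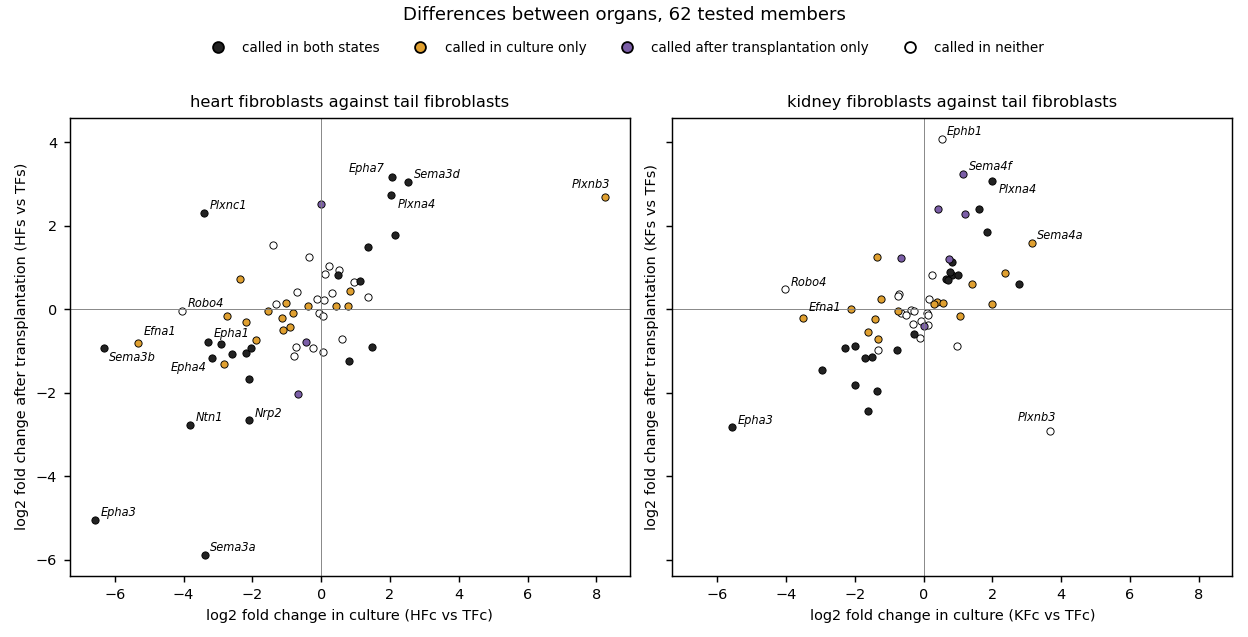
Log2 fold change of the 62 tested members between heart and tail fibroblasts (left) and kidney and tail fibroblasts (right), in culture (horizontal axis) and after transplantation (vertical axis), with points coloured by the states in which the adjusted p was under 0.05. *Epha3*, *Sema3a* and *Ntn1* are lower in heart than in tail in both states, and *Plxnc1* changes side.

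The results for KFs depended on replicate 3. Of the 62 tested members, 14 were more than 2-fold above both other KFs libraries in replicate 3 and 6 more than 2-fold below both. Among the high ones were *Epha2* (6.55, 5.38 and 67.3 CPM), *Sema3f* (1.94, 2.02 and 26.1 CPM) and *Sema3c* (16.3, 12.5 and 96.7 CPM), and among the low ones *Epha3* (35.5, 20.3 and 4.09 CPM) and *Ephb2* (102, 48.6 and 12.03 CPM). In the same library the sum of 4 kidney markers was 151 CPM, against 58.5 and 44.4. *Pax8* held the excess, with 6.27, 3.56 and 109 CPM in KFs replicates 1, 2 and 3. *Wt1* had 50.6, 39.8 and 40.7 CPM, *Foxd1* at most 0.768 CPM and *Hoxd11* at most 0.889 CPM. The sum of epithelial markers was 118 CPM in replicate 3. The part of these markers in the values of the members was not tested. Without it, *Efna2*, *Unc5a*, *Epha2*, *Ntn1*, *Sema3c*, *Sema3f* and *Sema4d* gained a call in kidney fibroblasts, of which *Efna2* (1.21 ± 0.27, adjusted p = 0.00147) and *Unc5a* (1.46 ± 0.24, adjusted p = 0.000111) rose and the others fell, while *Sema4a* and *Slit2* lost theirs and the other 20 of the 22 calls were made again. Of the 27 members that differed between KFs and TFs, 22 differed without it, and of the 22 between HFs and KFs, 20 did. *Epha2* and *Sema3f* were then also lower in KFs than in TFs (-1.77 ± 0.14, adjusted p = 1.37e-07 and -3.29 ± 0.19, adjusted p = 8.61e-09).

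**Figure D4:**
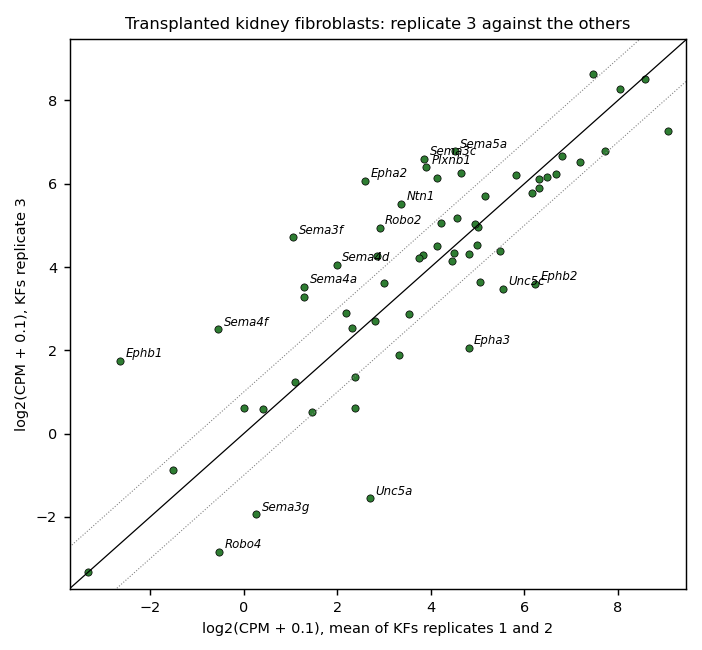
Level of the 62 tested members, as log2(CPM + 0.1), in KFs replicate 3 against the mean of KFs replicates 1 and 2; the solid line marks equal levels, dotted lines a 2-fold difference, and names mark differences of more than 4-fold on this scale. *Epha2*, *Sema3f* and *Sema3c* lie far above the line and *Robo4*, *Sema3g* and *Unc5a* far below it.

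Other genes of these pathways were read from fixed lists, which were drawn up with earlier results of these data known. For these genes no fit without KFs replicate 3 is given, so its part in their kidney results was not tested. Of 13 tested partners at the cell surface or secreted, 5 rose and 1 fell in heart and in kidney (46.2% in each, against 27.7% and 22.6% of all genes), and 5 rose and 3 fell in tail (61.5%, against 16.5%). *Cxcl12*, a chemokine that guides axons and cells, rose in all 3, with 1050.0 ± 181 CPM against 97.1 ± 2.22 in heart (3.44 ± 0.53, adjusted p = 5.53e-05), 213 ± 184 CPM against 30.7 ± 1.15 in kidney (2.79 ± 0.52, adjusted p = 0.000388) and 1208 ± 70.6 CPM against 180.0 ± 4.399 in tail (2.75 ± 0.51, adjusted p = 0.000631), as means ± SD of 3 libraries. The SD of *Cxcl12* in KFs was nearly as large as its mean, so the KFs libraries spread widely. The adhesion molecule *Chl1* also rose in all 3 (5.8 ± 0.65, adjusted p = 2.73e-06 in heart, 5.16 ± 0.7, adjusted p = 2.41e-05 in kidney and 6.8 ± 0.6, adjusted p = 6.57e-07 in tail). *Draxin*, a netrin antagonist, rose in heart (3.55 ± 1.07, adjusted p = 0.0102) and kidney (3.01 ± 0.56, adjusted p = 0.000383) and fell in tail (-1.55 ± 0.44, adjusted p = 0.0109). Of 41 cytoplasmic effectors, which carry the signal to the cytoskeleton, 4 rose and 5 fell in heart, 1 rose and 4 fell in tail, and 4 were called in kidney, all of them lower. These shares of 22% in heart, 12.2% in tail and 9.76% in kidney lay below the 27.7%, 16.5% and 22.6% of all genes. *Mical2*, an actin oxidase of the family that acts below plexins, fell in heart (-1.68 ± 0.17, adjusted p = 9.43e-07) and tail (-1.72 ± 0.17, adjusted p = 2.15e-06), and *Rnd1*, a small GTPase that binds plexins, in heart (-2.84 ± 0.31, adjusted p = 1.71e-06) and kidney (-1.34 ± 0.29, adjusted p = 0.00119). *Vav3*, an exchange factor used by Eph receptors, rose in heart (2.56 ± 0.39, adjusted p = 4.87e-05) and tail (2.69 ± 0.41, adjusted p = 0.000118).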

How the data were processed

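RNA of 18 libraries, 3 in each of 6 groups, was measured by stranded single-end sequencing of 75 bases after library preparation with a low-input total RNA kit (SMARTer). The authors trimmed the reads to quality scores above 30, aligned them with Bowtie2 2.2.0 within RSEM 1.2.12 and deposited expected counts per gene, which are whole numbers and not normalized. Their methods name GRCm38, whereas the submitters' processing notes name mm9, and the table holds no coordinates. Gene types and symbols were taken from GENCODE mouse release 21. *Unc50*, which shares only letters with the Unc5 receptors, was left out, and *Ntn3* was not analysed here.

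Counts were filtered with filterByExpr and normalized by TMM, and the 16577 genes left were fitted with edgeR 4.0.16 (R 4.3.3) over all 18 libraries, each group having its own mean (glmQLFit and glmQLFTest, two-sided, Benjamini-Hochberg adjustment over all genes tested, biological coefficient of variation 0.24). The standard error is the log2 fold change divided by the square root of F. Scripts were tested on simulated data. Transplanted and cultured cells were compared at an adjusted p of 0.05 and a log2 fold change limit of 1, and organs and responses at the adjusted p alone. Library totals and the 3-count floor limit what could be seen of the lowest members. A fold against a group with no library above this floor was computed from the mean of the other group against the mean floor of the libraries, as a lower bound. CPM per kb used merged exons. Figures were made with matplotlib 3.10.9.

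Members, gene lists and tests were chosen with earlier results of these data known. Values are given for up to 6 rising and 6 falling members of each transplant comparison, taken by size of change, whose groups did not overlap, up to 4 in each direction between organs, the 4 smallest p of each interaction, and the 2 highest per length of each family. *Neo1*, *Sema3f*, *Sema4b*, *Sema5a*, *Sema6c*, *Plxna3*, *Robo1*, *Ephb2*, *Efna2*, *Unc5a* and the partners and effectors named were chosen after their values were seen. Alternatives were DESeq2 1.42.0, its size factors, other count filters, the replicate number as a block, fits of only the groups compared, other fold limits, a proximal tubule covariate and each library left out. Fits without KFs replicate 3 for comparisons that do not involve it were added after seeing the data, as was a fit of the transplanted libraries without the covariate. The replicate numbers of the labels did not pair the samples (correlations of deviations from group means within -0.14 and 0.08).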

Additional observations from a re-analysis of the deposited data

Results flagged for a closer look

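The response to transplantation differed between organs, in tests of the difference itself, for 21 members between heart and tail, 13 between kidney and tail and 21 between heart and kidney (22.8%, 11.1% and 26.2% of all genes). The values below are differences of log2 fold changes ± SE. Between heart and tail they were 5.72 ± 0.73, adjusted p = 6.5e-05 for *Plxnc1*, 5.39 ± 0.51, adjusted p = 5.47e-06 for *Sema3b*, 2.5 ± 0.32, adjusted p = 6.6e-05 for *Epha1* and -2.49 ± 0.3, adjusted p = 3.92e-05 for *Sema3a*. *Plxnc1* rose in each HFs library above the highest HFc value and fell in each TFs library below the lowest TFc value. Between kidney and tail they were 3.29 ± 0.67, adjusted p = 0.00546 for *Efna1*, -2.16 ± 0.28, adjusted p = 0.000189 for *Ntn4*, 1.35 ± 0.27, adjusted p = 0.00535 for *Ephb6* and 0.73 ± 0.13, adjusted p = 0.00211 for *Efna5*. Without KFs replicate 3 the same differences were 2.25 ± 0.42, adjusted p = 0.00146 for *Efna1*, -2.38 ± 0.25, adjusted p = 8.43e-06 for *Ntn4*, 1.09 ± 0.24, adjusted p = 0.00484 for *Ephb6* and 0.72 ± 0.13, adjusted p = 0.00122 for *Efna5*. Between heart and kidney they were -2.68 ± 0.3, adjusted p = 3.18e-05 for *Sema3a*, -2.36 ± 0.29, adjusted p = 6.53e-05 for *Efnb2*, 1.6 ± 0.2, adjusted p = 7.08e-05 for *Plxnd1* and 1.53 ± 0.19, adjusted p = 7.7e-05 for *Efnb1*, and without KFs replicate 3 -2.58 ± 0.31, adjusted p = 2.14e-05, -2.35 ± 0.29, adjusted p = 2.75e-05, 1.53 ± 0.18, adjusted p = 2.2e-05 and 1.53 ± 0.2, adjusted p = 3.97e-05 in the same order. For the 2 ephrins of this last comparison the directions were opposite, *Efnb1* rising and *Efnb2* falling in heart fibroblasts relative to kidney fibroblasts. Apart from KFs replicate 3, described above, groups of 3 libraries were not searched for single outlying samples, though each library was left out in turn.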

How the results depend on the processing

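Of 184 alternative counts of called members, 161 stayed within 1.5 times the reported count, and of 96 reported fold changes of single members, 83 kept their direction and their side of the threshold under every alternative and none reversed. DESeq2 gave 32, 23 and 18 calls for heart, kidney and tail after transplantation, and no adjusted p for *Epha2* in heart and tail. Fits of only the groups compared gave 6 calls for KFs against TFs, 7 for HFs against KFs and 35 for heart against tail responses. Without the fold limit, 35 members were called in kidney and 30 in tail after transplantation, and a log2 fold limit of 1 left 16 between KFs and TFs. A fit of the 9 transplanted libraries alone, added after seeing the data, gave 17 calls between HFs and TFs, 14 between KFs and TFs and 14 between HFs and KFs, and with the proximal tubule covariate in the same fit there were 12, 4 and 3. The shares of all genes called are not given for these alternatives, so their counts cannot be read as particular to the members. The cause of these changes was not tested.

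With 1 library left out, counts ran from 25 to 33 for HFs against HFc, 18 to 27 for KFs against KFc, 16 to 20 for TFs against TFc, 36 to 43 for HFc against TFc, 30 to 42 for KFc against TFc, 27 to 43 for HFc against KFc, 21 to 38 for HFs against TFs, 21 to 33 for KFs against TFs, 16 to 29 for HFs against KFs, 20 to 34 for heart against tail, 7 to 24 for kidney against tail and 16 to 33 for heart against kidney responses. KFs replicate 3 gave 38 for HFs against TFs and 34, 24 and 33 for the 3 responses when left out. The kidney against tail count was 7 without KFc replicate 1, KFc replicate 2, TFc replicate 2 or TFs replicate 2, and 8 without KFc replicate 3, TFc replicate 1, TFc replicate 3 or TFs replicate 3. Blocking on the replicate number gave 31, 22 and 19 for heart, kidney and tail after transplantation, and 39, 36, 36, 25, 27, 20, 20, 11 and 20 for the others in the order above. The call of *Robo4* in kidney was lost under the block on the replicate number, under which no other named call was lost. Members near the floor, such as *Robo3*, *Robo4*, *Efnb3* and *Plxnb3*, lost calls when single libraries were left out.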

Other observations

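In the 3 ligand and receptor pairs given first, the partners moved in opposite directions in the same fibroblasts, which was noticed after the values were seen. *Epha2* fell in HFs (-3.55 ± 0.67) where its ligand *Efna1* rose (4.18 ± 0.6), and in tail fibroblasts *Plxnc1* fell (-3.72 ± 0.53) where *Sema7a* rose (2.58 ± 0.3). *Sema3e* fell and *Plxnd1* rose in heart (-3.13 ± 0.38 and 2.37 ± 0.15) and in tail (-1.8 ± 0.36 and 1.21 ± 0.14), and in kidney, where *Plxnd1* did not pass the fold limit, the values were -1.33 ± 0.34 and 0.77 ± 0.14. *Efnb2* and its receptor *Ephb4* had -1.76 ± 0.21 and 0.0 ± 0.1 in heart. Other partners moved together. In heart fibroblasts *Sema4d* and its receptor *Plxnb1* were both called higher. So were *Efna1* and the EphA receptors *Epha3*, *Epha5* and *Epha7*, and *Sema3b* with *Nrp1* and *Plxna3*. No count or test of all pairs was made.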
